A study of Homo sapiens with 6 samples.

Results

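The kallikrein-related peptidases of the epidermis and the Kazal-type inhibitors that block them were followed as 10 genes: KLK5, KLK6, KLK7, KLK8, KLK10, KLK11, KLK13, KLK14, SPINK5 and SPINK6. They were chosen by name, and each symbol matched 1 row among the 27945 genes of the deposited table. All 10 have a single genomic copy in that table and no listed gene overlaps them. Of these, 9 reached 1 RPKM (reads per kilobase of exon, scaled to library size, a level per length) in at least 1 library and were tested. SPINK6 did not, and is given as values only.

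The RNA came from HaCaT, an immortalised human keratinocyte line, and the libraries were bulk poly-A RNA sequencing of wild-type cells and of MAPK14-null cells, labelled p38a-KO. MAPK14 encodes the stress-activated kinase p38α. Unstimulated cells received PBS for 4 h, and the others IL-1α, an alarm cytokine of the epidermis, in PBS for 4 h. There was 1 unstimulated library and a pair of IL-1α libraries (replicates 1 and 2) per genotype. All cells grew in serum-containing medium, and the labels give neither the edit nor the number of clones, nor whether replicates were separate cultures. The p-values therefore measure the spread between these libraries, which may be technical. In bulk RNA, fewer cells of a type and less RNA per cell cannot be told apart.

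Kallikreins are secreted serine proteases made as inactive zymogens. In the outer epidermis, KLK5 can activate itself and then KLK7 and other kallikreins, and the active enzymes cut the adhesion proteins that hold corneocytes together, so that dead cells are shed. LEKTI, the product of SPINK5, is cut into fragments that bind KLK5, KLK7 and KLK14, and its loss causes Netherton syndrome, in which the barrier peels. KLK5 and KLK14 also activate PAR2 (F2RL1), a receptor tied to itch and inflammation.

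The genes lie in 2 groups on the genome. In the hg19 coordinates of the deposited table, the 8 kallikreins occupy 140.909 kb of chromosome 19, all on the minus strand: KLK5 at 51446559 to 51456344, KLK6 at 51461887 to 51472929, KLK7 at 51479735 to 51487071, KLK8 at 51499264 to 51504958, KLK10 at 51516000 to 51522954, KLK11 at 51525487 to 51529872, KLK13 at 51558883 to 51568367 and KLK14 at 51580752 to 51587467. SPINK5, at 147443535 to 147504503, and SPINK6, at 147582357 to 147594700, share a 151.166 kb stretch of chromosome 5 on the plus strand. Values are exon reads per gene, so each spans the whole annotated transcript. The exon length behind each level runs from 584 bases for KLK8 to 2960 bases for KLK10.

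The sequence before the transcription start is shown for 3 members, because the genotype comparisons below turn on them: SPINK5, which stood higher in the knockout libraries, and KLK7 and KLK10, which stood lower. Each is the 250 bases before the most upstream RefSeq start, on build GRCh38.p14 and in the direction of transcription, at chr5:148063730-148063979 (plus strand), chr19:50984065-50984314 (minus) and chr19:51019862-51020111 (minus). Capitals mark matches to the motifs searched.
SPINK5: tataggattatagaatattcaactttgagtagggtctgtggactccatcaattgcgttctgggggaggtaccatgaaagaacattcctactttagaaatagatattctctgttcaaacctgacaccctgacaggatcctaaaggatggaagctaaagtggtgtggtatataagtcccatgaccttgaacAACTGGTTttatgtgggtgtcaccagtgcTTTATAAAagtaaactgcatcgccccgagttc
KLK7: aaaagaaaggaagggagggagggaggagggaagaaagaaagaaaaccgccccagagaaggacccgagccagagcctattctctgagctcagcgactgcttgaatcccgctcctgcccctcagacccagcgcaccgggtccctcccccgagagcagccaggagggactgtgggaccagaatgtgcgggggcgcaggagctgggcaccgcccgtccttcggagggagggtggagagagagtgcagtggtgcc
KLK10: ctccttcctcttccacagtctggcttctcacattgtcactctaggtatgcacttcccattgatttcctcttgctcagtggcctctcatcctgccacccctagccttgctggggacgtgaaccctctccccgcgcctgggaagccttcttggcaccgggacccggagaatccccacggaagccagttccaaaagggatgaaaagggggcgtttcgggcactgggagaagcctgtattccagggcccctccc
The 4 motifs, searched on both strands, were TATAAA (the TATA box, in 11.2% of 27305 such windows), TGANTCA (the AP-1 site, 6.57%), TTGCNNAA (C/EBP, 9.12%) and AACNGGTT (the Grainyhead-like site, 1.5%). SPINK5 held a TATAAA 30 bases before its start, which overlaps a second match on the other strand, and a Grainyhead-like match 61 bases before it. None of the 7 kallikrein windows held any of the 4 motifs, and neither did that of SPINK6. KLK8 has no window. Only the most upstream start of each gene was searched. KLK7 and KLK14 have 3 RefSeq starts each, and KLK10, KLK11, KLK13 and SPINK6 have 2 each. The kallikrein windows were 52.4% to 66.8% G or C, against 41.6% for SPINK5, 38.8% for SPINK6 and a median of 57.6% over all windows. A match is a description of these letters and not evidence of binding.

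Recovered depth ran from 16294188 to 34968143 reads per library. MAPK14 itself was at 14.4 RPKM in unstimulated wild-type cells, 13.3 and 14.8 with IL-1α, and at 11.3, 10.99 and 7.41 in the 3 knockout libraries, so its RNA was still present there. All 8 keratinocyte markers reached 1 RPKM, with summed levels of 4291 in unstimulated wild type, 3780 to 4287 with IL-1α, 3047 in unstimulated knockout and 2645 to 2900 with IL-1α. The summed markers of other cell types were at most 0.61 RPKM for melanocytes (TYR at 0) and 0.80 to 2.59 for fibroblasts. They were 4.88 to 14.8 for leukocytes, mostly CD68, and 1.82 to 11.96 for endothelium, mostly CDH5 (PECAM1 at 0). The sweat gland markers were all at 0. The IL-1α pair correlated across genes at 0.985 in wild type and 0.969 in knockout.

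KLK5, the trypsin-like protease that starts the cascade, was the most abundant member in all 6 libraries. It stood at 170.4 RPKM in unstimulated wild-type cells, at 109 and 118 with IL-1α, at 148 in unstimulated knockout cells, and at 136 and 96.6 with IL-1α. The unstimulated library was the highest of its genotype in both cases, and the IL-1α values of the genotypes overlapped.

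KLK7, the chymotrypsin-like protease that cuts corneodesmosomes, separated the genotypes. Wild-type cells held 22.6 RPKM unstimulated and 13.1 and 10.5 with IL-1α, whereas knockout cells held 4.86, 3.63 and 6.67. All 3 knockout libraries lay below all 3 wild-type libraries. KLK14, a trypsin-like activator of other kallikreins and of PAR2, was scarce: 2.12 RPKM in unstimulated wild type, 0.786 and 0.478 with IL-1α, then 0.733, 0.27 and 0.761 in knockout. These KLK14 values rest on 6 to 36 reads a library, and only the unstimulated wild-type library stood apart.

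KLK10 was the next most abundant. Its levels were 117 RPKM in unstimulated wild type, 90.4 and 71.05 with IL-1α, and 52.8, 50.0 and 53.2 in the knockout libraries. The knockout values lay within a narrow band below every wild-type value. KLK8, a trypsin-like protease of the granular layer, was at 49.9 RPKM in unstimulated wild type and between 18.5 and 25.9 in the other 5 libraries: 25.9 and 19.2 in wild type with IL-1α, then 22.8, 19.3 and 18.5 in knockout. KLK8 was thus set apart by 1 library.

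KLK11 stood at 19.6 RPKM in unstimulated wild type and 10.8 and 8.05 with IL-1α, and at 13.5, 10.4 and 8.02 in knockout. Its order was alike in both genotypes, with the unstimulated library highest. KLK13 levels were 15.1 RPKM in unstimulated wild type, 9.09 and 7.48 with IL-1α, and 6.44, 5.275 and 10.6 in knockout. Here the second knockout IL-1α library was the higher of its pair and overlapped the wild-type range. KLK6 was low everywhere, at 5.91 RPKM in unstimulated wild type, 4.06 and 3.69 with IL-1α, and 5.545, 4.55 and 2.17 in knockout, and its genotypes overlapped.

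SPINK5, the gene of LEKTI, ran the other way from KLK7 and KLK10. Its levels were 3.585 RPKM in unstimulated wild type, 2.47 and 2.97 with IL-1α, and 7.48, 4.59 and 5.09 in knockout. Every knockout library lay above every wild-type library, on 116 to 755 reads each. SPINK6, a short inhibitor of several kallikreins, was barely detected. It had 0, 1 and 0 reads in the wild-type libraries and 5, 3 and 1 in the knockout libraries, or at most 0.239 RPKM. With 0 reads, the floor of 3 reads allows up to 0.299 RPKM without stimulation and 0.27 in the second IL-1α library of wild type, so no difference was detectable at this depth.

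**Figure D1:**
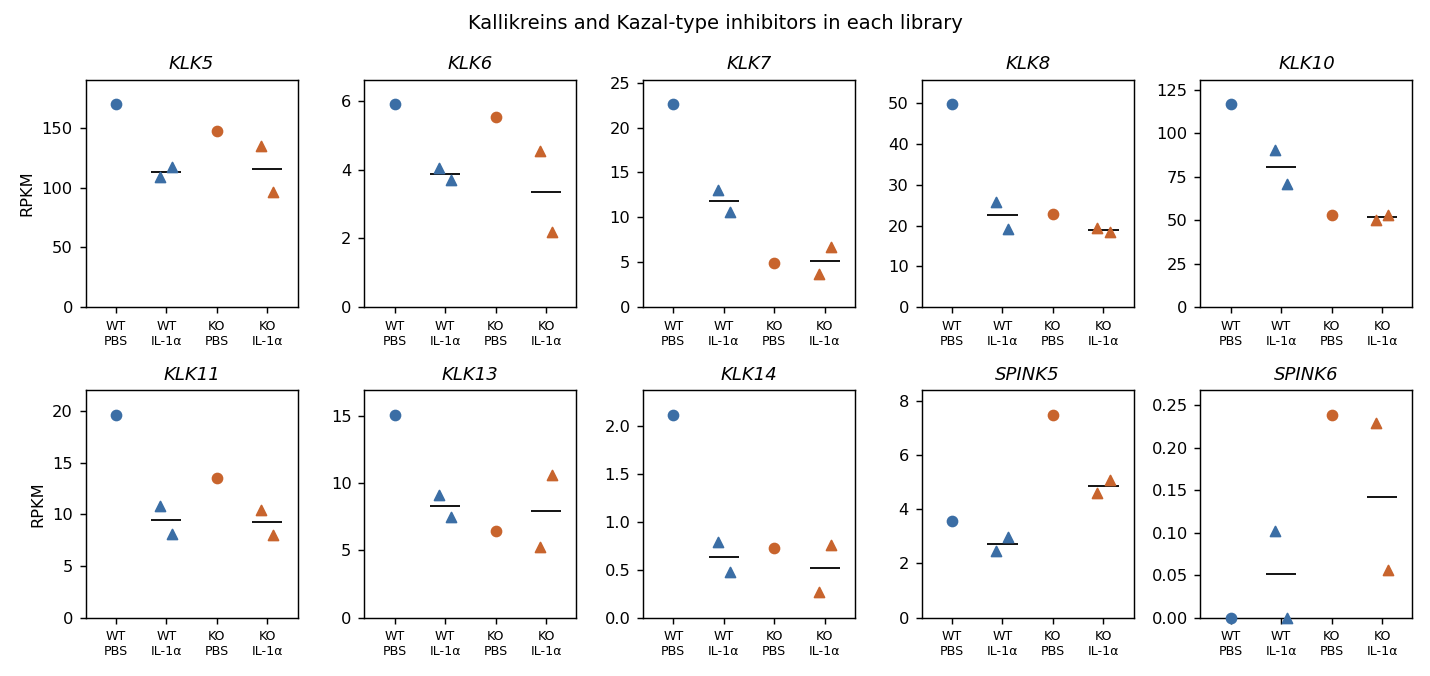
RPKM of the 10 members in each of the 6 libraries, 1 panel per gene. Circles are unstimulated and triangles IL-1α libraries, blue wild type (WT) and orange knockout (KO), and bars are the means of the IL-1α pairs. KLK7 and KLK10 lie lower and SPINK5 higher in all 3 knockout libraries than in all 3 wild-type libraries, and SPINK6 stays at or below 0.239 RPKM.

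By the mean over 6 libraries the order was KLK5 (129.6 RPKM), KLK10 (72.4), KLK8 (25.9), KLK11 (11.7), KLK7 (10.2), KLK13 (8.99), SPINK5 (4.365), KLK6 (4.32), KLK14 (0.858) and SPINK6 (0.104). The first 3 exceeded their next neighbour in 6 of 6 libraries, as did KLK6 and KLK14. KLK13 exceeded SPINK5 in 5 of 6. The other 3 neighbouring pairs did not keep their order: KLK11 exceeded KLK7 in 3 of 6 libraries, KLK7 exceeded KLK13 in 3, and SPINK5 exceeded KLK6 in 3.

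The 8 expressed kallikreins are part of a longer run of related genes, and their neighbours were nearly silent, KLK14 alone being in the range of the highest of them. The table holds 16 rows of the family at this locus, and the highest level among the 8 non-members was 1.086 RPKM, for KLK1 in unstimulated knockout cells. KLK3, KLK15 and the pseudogene KLKP1 were listed at 0 in every library. KLK9, 810 bases from KLK8 and 3109 bases from KLK10, reached 0.211 to 0.640 RPKM between 2 of the most abundant members. KLK12, between KLK11 and KLK13, was listed at 0 in 5 libraries and at 0.036 in the other.

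**Figure D2:**
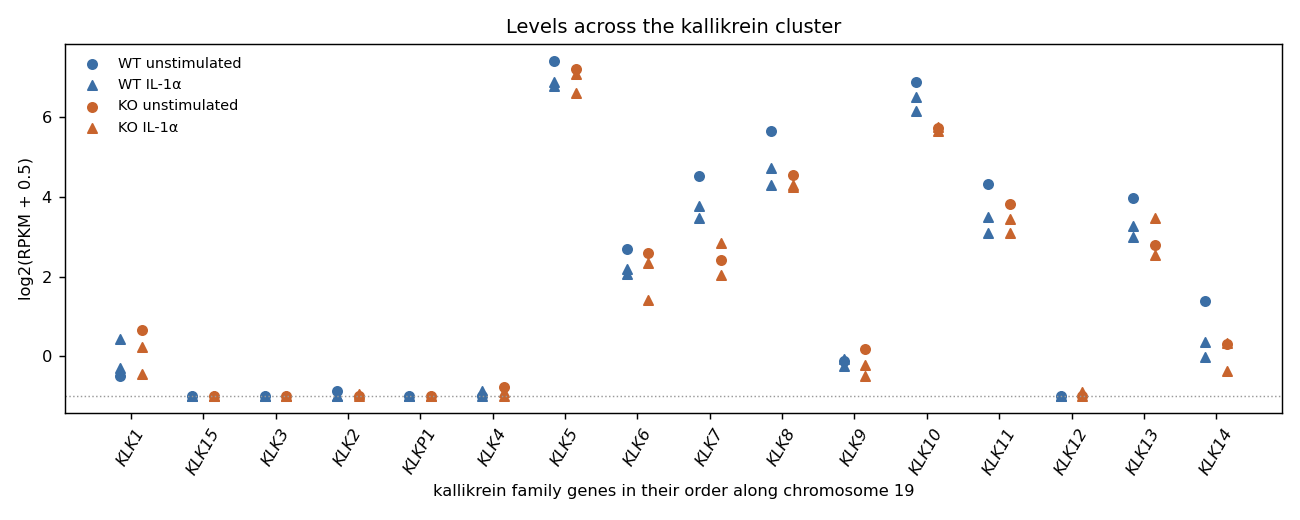
Levels as log2(RPKM + 0.5) of the 16 kallikrein rows of chromosome 19 in their order along it, 1 point per library, with a dotted line at 0 RPKM. The members other than KLK14 stand above all non-members in every library, and no non-member passes 1.086 RPKM.

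Unstimulated cells labelled MAPK14-null were compared with unstimulated wild-type cells. With 1 library per genotype there is no replicate check, and the intervals below cover counting error only. Of 9 members, 5 were at least 2-fold lower in the knockout library (5.49% of the 12925 genes tested were) and 1 was at least 2-fold higher (4.02%). KLK7 showed the widest gap, at 4.66-fold lower (95% exact interval 4.08 to 5.32). KLK14 was 2.89-fold lower (1.70 to 4.99) on 36 and 26 reads, KLK13 2.34-fold (2.002 to 2.74), KLK10 2.21-fold and KLK8 2.19-fold lower. SPINK5 was 2.09-fold higher (1.77 to 2.48). KLK11 had a knockout to wild-type ratio of 0.688 (0.603 to 0.786) and KLK5 of 0.870 (0.836 to 0.905), while the interval for KLK6, 0.939 (0.759 to 1.17), included 1. At a 3-fold threshold only KLK7 remained past it. For scale, ratios between the 2 knockout IL-1α libraries, which carry the same label, also went past counting error for 7 of 10 members: replicate 2 held 2.82 times the KLK14 (1.116 to 8.46), 2.01 times the KLK13 (1.67 to 2.42), 1.84 times the KLK7 (1.52 to 2.23) and 0.477 times the KLK6 (0.360 to 0.630) of replicate 1. Between the 2 wild-type IL-1α libraries 5 of 10 members went past counting error. The share over all genes was not computed for either pair, so neither count is a trait of the members. The gaps between genotypes of KLK7, KLK10, KLK8 and SPINK5 exceed their gaps between the knockout replicates. Knockout replicate 2 held 1.06 times the KLK10, 0.956 times the KLK8 and 1.11 times the SPINK5 of replicate 1. The KLK13 and KLK14 gaps between genotypes are close to their gaps between the knockout replicates.

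The response of wild-type cells to IL-1α was tested with limma on log2(RPKM + 0.5), with Benjamini-Hochberg adjustment over all genes tested; on that scale the change of low genes is understated. None of the 9 members passed an adjusted p of 0.05 (0.217% of genes did), and 5 were lower at an unadjusted p under 0.05, namely KLK7, KLK8, KLK10, KLK11 and KLK14 (13.4% of genes were). Both IL-1α libraries lay below the unstimulated library for 9 of 9 members, as for 54.3% of all genes. The log2 differences of the 8 kallikreins had a median of -0.87, against -0.14 over all genes. KLK8 had -1.14 ± 0.23 (SE, adjusted p = 0.128), KLK11 -1.03 ± 0.27 (adjusted p = 0.157), KLK14 -1.22 ± 0.42 (adjusted p = 0.219) and KLK7 -0.92 ± 0.35 (adjusted p = 0.253). KLK13 had -0.83, KLK5 -0.59, KLK6 -0.55, KLK10 -0.54 and SPINK5 -0.35, with adjusted p from 0.268 to 0.499. All of these differences share the same single unstimulated library. Removing the genome-wide trend with transcript length took the kallikrein median to -0.60 and KLK8, the shortest of the 8 transcripts, to -0.68; scaling by median of ratios, which brought the median of all genes to 0.00, gave a kallikrein median of -0.72.

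In knockout cells the same stimulation gave differences of both signs. Again 0 of 9 members passed by limma (0.0696% of genes did). SPINK5 alone was lower at an unadjusted p under 0.05 (1.05% of genes), with a log2 difference of -0.58 ± 0.24 (limma adjusted p = 1, unadjusted p = 0.0484). Both IL-1α libraries lay below the unstimulated one for 5 of 9 members (36.4% of all genes), namely KLK5, KLK6, KLK8, KLK11 and SPINK5, and the same 5 did so in both genotypes (25.9%). The log2 differences were -0.72 for KLK6, -0.54 for KLK11, -0.37 for KLK5, -0.32 for KLK14, -0.26 for KLK8, -0.03 for KLK10, 0.02 for KLK7 and 0.21 for KLK13. Their median was -0.29, against -0.02 over all genes. The signs for KLK7, KLK10, KLK13 and KLK14 turned when 1 library was left out.

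Whether the response differs between genotypes was tested as an interaction, knockout response minus wild-type response. No gene passed (0%), so no difference in response was shown for any member. The median over the 8 kallikreins was 0.69 on the log2 scale, against 0.10 over all genes, with KLK13 at 1.04, KLK7 at 0.94, KLK14 at 0.90 and KLK8 at 0.88 ± 0.33 (limma adjusted p = 0.966, unadjusted p = 0.0353). KLK10 was at 0.51, KLK11 at 0.49, KLK5 at 0.21, KLK6 at -0.17 and SPINK5 at -0.23. The lowest adjusted p of any member was 0.966. With the length trend removed KLK8 was at 0.40.

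With IL-1α present, knockout and wild-type cells were compared pair against pair. Both knockout libraries lay below both wild-type libraries for KLK7 and KLK10 (16.3% of all genes), and both lay above them for SPINK5 (32.4%). The remaining 6 tested members overlapped. KLK7 averaged 5.15 ± 2.15 RPKM in knockout and 11.8 ± 1.77 in wild type (SD, n = 2 each), a log2 difference of -1.17 (95% interval -1.87 to -0.47, adjusted p = 0.197 by limma). KLK10 averaged 51.6 ± 2.23 against 80.7 ± 13.7, a difference of -0.63 (-1.06 to -0.20, adjusted p = 0.225 by limma), and SPINK5 4.84 ± 0.351 against 2.72 ± 0.357, a difference of 0.73 (0.26 to 1.20, adjusted p = 0.210 by limma). None of the 9 members passed (0.155% of genes did). KLK5 averaged 116 ± 27.5 against 113 ± 5.87 RPKM, a log2 difference of 0.01 with an interval of -0.49 to 0.51, and KLK11 had -0.03 with an interval of -0.56 to 0.50. KLK6 had -0.25, KLK8 -0.23, KLK14 -0.19 and KLK13 -0.13. Leaving out knockout replicate 2 took KLK7 to -1.57, and leaving out replicate 1 took it to -0.77.

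**Figure D3:**
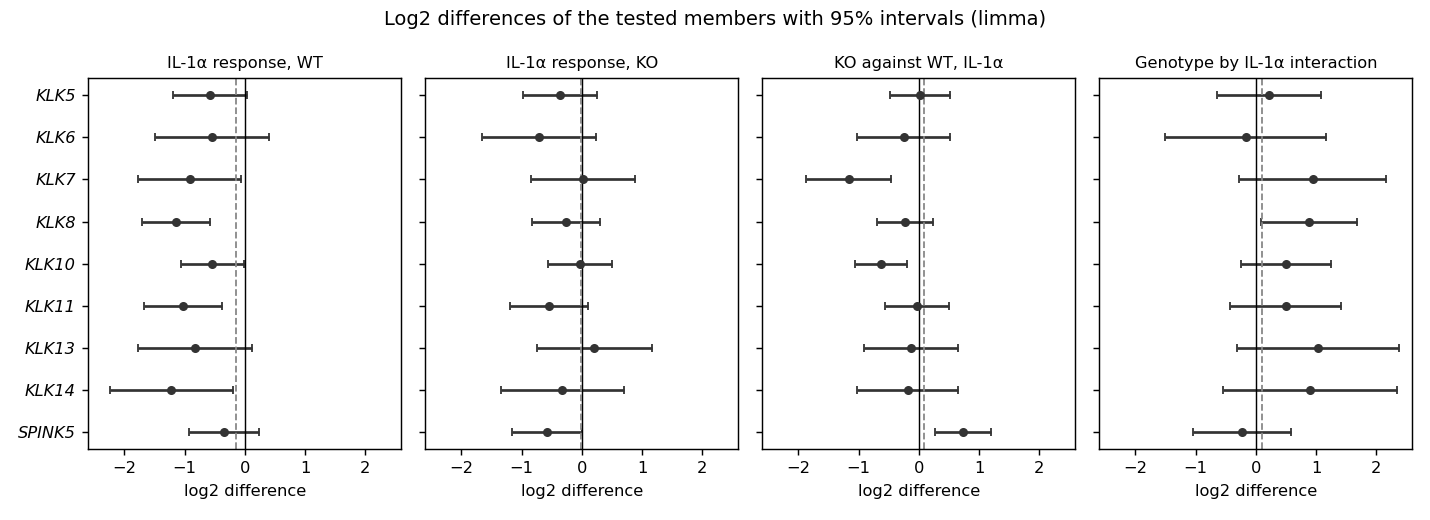
Log2 differences with their 95% intervals (limma, RPKM + 0.5) for the 9 tested members in the IL-1α response of each genotype, the genotype comparison under IL-1α and the interaction. Dashed lines are the medians of all genes tested. The wild-type responses of all 9 lie below 0, from -1.22 to -0.35, and no member passes an adjusted p of 0.05.

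Over all 6 libraries, an additive model with 1 term for genotype and 1 for IL-1α sets 3 knockout libraries against 3 wild-type libraries. It assumes the same IL-1α response in both genotypes. In the group model that response was -0.92 in wild type and 0.02 in knockout for KLK7. For KLK10 it was -0.54 and -0.03, and for SPINK5 -0.35 and -0.58, and no interaction passed. All 3 knockout libraries lay below all 3 wild-type ones for KLK7 and KLK10 (8.86% of all genes) and above them for SPINK5 (15.7%). In this alternative to the group model, 3 of 9 members were called (2.65% of genes): KLK7 and KLK10 were lower in knockout (1.32%) and SPINK5 was higher (1.34%). KLK7 had a log2 difference of -1.48 ± 0.26 (limma adjusted p = 0.0325), KLK10 of -0.80 ± 0.17 (adjusted p = 0.0499) and SPINK5 of 0.81 ± 0.15 (adjusted p = 0.0366). KLK8 was at -0.53 (adjusted p = 0.187), KLK14 at -0.49, KLK13 at -0.47, KLK6 at -0.20, KLK11 at -0.19 and KLK5 at -0.06. The 3 calls are not robust: none was left after omitting any 1 of the libraries other than knockout IL-1α replicate 2, and none with the replicate number as a block (adjusted p of 0.0586, 0.0801 and 0.0519). Leaving out that library gave 4 calls, KLK13 being the addition. The share of all genes called in that fit is not given here, so this count cannot be weighed against it. Across these omissions the differences ran from -1.80 to -1.17 for KLK7, -0.95 to -0.63 for KLK10 and 0.73 to 0.90 for SPINK5. The IL-1α term was negative for 9 of 9 members (62.4% of genes), and 0 were called (1.07%); KLK11 at -0.79 had the lowest adjusted p, 0.130.

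Summed over the 8 genes, kallikrein RNA was 402 RPKM in unstimulated wild-type cells, 263 and 238 with IL-1α, 255 in unstimulated knockout cells, and 229 and 196 with IL-1α. The unstimulated wild-type library stood highest, and the next was the first wild-type IL-1α library at 263.4 RPKM. KLK5 made up 41.5% to 59.2% of each sum, and KLK5 with KLK10 71.4% to 81.0%. Inhibitor RNA, SPINK5 plus SPINK6, was 3.585, 2.57 and 2.97 RPKM in wild type and 7.72, 4.82 and 5.14 in knockout. The ratio of the sums was therefore 112, 102 and 80.1 in the wild-type libraries and 33.0, 47.5 and 38.2 in the knockout libraries, with no overlap. These are ratios of RNA levels per length and not of protein.

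Pairs of enzyme and inhibitor showed the same split to different degrees. KLK7 to SPINK5 was 6.31, 5.29 and 3.55 in wild type and 0.649, 0.791 and 1.31 in knockout. KLK5 to SPINK5 was 47.5, 44.3 and 39.6 against 19.8, 29.5 and 18.99, the numerator being similar and the denominator higher. Within the cascade, KLK5 exceeded KLK7 by 7.53, 8.37 and 11.1 times in wild type and by 30.5, 37.3 and 14.5 times in knockout. The genotypes did not overlap in any of these 3 ratios. Since they are built from the levels already described, they carry no separate test.

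**Figure D4:**
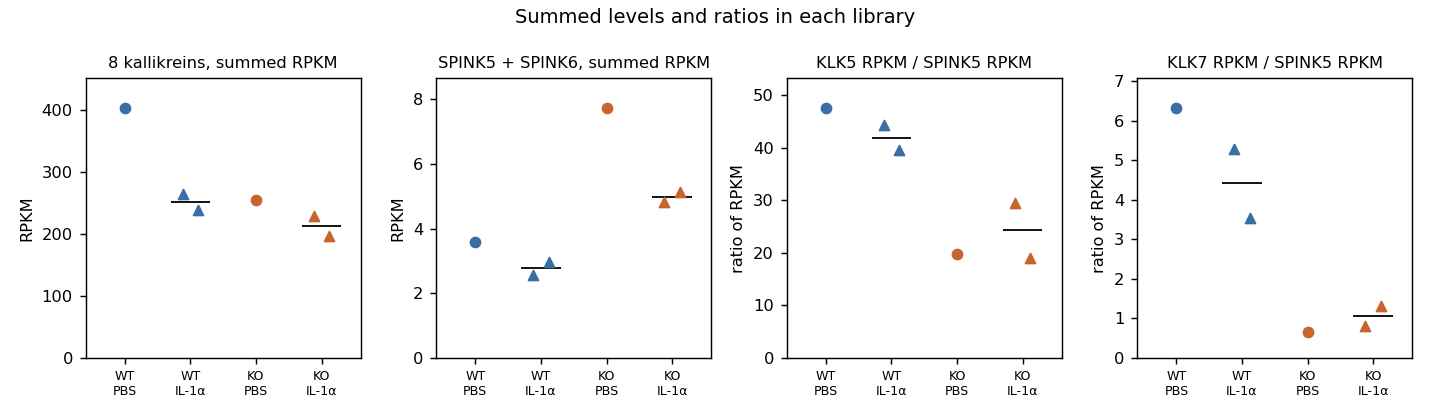
Summed kallikrein RPKM, summed inhibitor RPKM and the ratios of KLK5 and KLK7 to SPINK5 in each of the 6 libraries, with bars at the means of the IL-1α pairs. KLK7 to SPINK5 lies between 3.55 and 6.31 in wild type and between 0.649 and 1.31 in knockout.

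The other genes of the pathway were read from lists. Among 8 other kallikreins only KLK1 reached 1 RPKM and none passed; KLK1 (0.206 to 1.086 RPKM) and KLK9 were the most abundant. None of 8 other Kazal-type inhibitors reached 1 RPKM: SPINK1 was at most 0.204 and SPINK4 at most 0.144. Of 14 other skin inhibitors of trypsin- and chymotrypsin-like proteases 7 were tested, and 2 rose with IL-1α in wild type and 1 in knockout (limma). PI3, the elastase inhibitor elafin, was at 1.41 RPKM in unstimulated wild type and at 51.0 and 40.2 with IL-1α (log2 4.58, adjusted p = 0.0289); in knockout it was at 0.676, then 26.2 and 12.6 (log2 3.99, adjusted p = 0.0652). SERPINA3, which encodes a chymotrypsin inhibitor, had log2 differences of 3.75 (adjusted p = 0.0134) in wild type and 4.00 (adjusted p = 0.0250) in knockout. Without 1 of the 4 IL-1α libraries the wild-type difference was 4.41 to 4.75 for PI3 and 3.67 to 3.83 for SERPINA3. A fit with 1 library left in a group cannot decide whether a call holds. The wild-type calls of PI3 and SERPINA3 were lost with no filter (limma adjusted p = 0.198 and 0.119) and with voom (0.0887 and 0.0636). The knockout difference of SERPINA3 was 3.79 to 4.21 without 1 of the 4 IL-1α libraries. Its knockout call was lost with no filter (limma adjusted p = 0.120) and with voom (0.0626).

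Of 14 proteases upstream of or beside the kallikreins, 6 were tested and 1 passed. PLAT, tissue plasminogen activator, rose with IL-1α in both genotypes (log2 2.50 in wild type, adjusted p = 0.0134, and 2.12 in knockout, adjusted p = 0.0427, limma). It was lower in knockout under IL-1α by -2.18 (adjusted p = 0.0280, limma), at 9.79 and 9.24 RPKM against 46.2 and 43.8. Without 1 of the 4 IL-1α libraries this PLAT difference was -2.22 to -2.14, and such fits cannot decide whether the call holds. The call was lost with no filter (limma adjusted p = 0.291) and with no variance trend (0.0524), settings in which 0 genes passed. With 1 IL-1α library left out, the PLAT response was 2.08 to 2.16 in knockout and 2.46 to 2.54 in wild type. The knockout call of PLAT was lost with no filter (limma adjusted p = 0.0513) and with no variance trend (0.0985). It was also lost with a pseudocount of 1 (0.0519) and with voom (0.0626). Of 17 kallikrein substrates and receptors 10 were tested and none passed. Their most abundant genes were the desmosomal cadherins DSG2, at 70.5 to 86.1 RPKM, and DSG3, at 29.7 to 79.6. DSG1 and DSC1, the cadherins that kallikreins cut in the stratum corneum, reached at most 0.05 and 0.022 RPKM, and CAMP, the gene of the cathelicidin precursor, was listed at 0 throughout. CDSN, the gene of corneodesmosin, has several copies in the table, so its value is uncertain. Of 13 other proteases and protease regulators of the upper epidermis 11 were tested and none passed, the most abundant being the cathepsins CTSD, at 222 to 562 RPKM, and CTSH, at 104 to 243.

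Genes of late keratinocyte differentiation were read as a further list. Of 16, 9 were tested, none passed in any comparison, and 9 of 9 had a log2 difference below 0 in knockout against wild type under IL-1α (39% of genes), with a median of -0.83 against 0.09. Involucrin (IVL), a cornified envelope protein, was at 129.6 RPKM in unstimulated wild type and 71.4 and 84.0 with IL-1α, and at 36.8, 29.7 and 12.7 in knockout. KRT10, the keratin of suprabasal cells, was at 119 RPKM and then 44.1 and 30.3 in wild type, and at 40.1, 25.1 and 14.5 in knockout. The 16 genes summed to 303 RPKM in unstimulated wild type, 165 to 177 with IL-1α, 118 in unstimulated knockout and 62.0 to 97.3 with IL-1α. IVL and KRT10 weigh most in these sums, and the list did not move as 1. In the wild-type response 5 of the 9 tested were below 0, with a median of -0.62 against -0.14 over all genes. KLF4 (0.56), GRHL1 (0.45), GRHL3 (0.30) and OVOL1 (0.22) were above 0. The kallikrein sum above was also highest in the unstimulated wild-type library, whereas SPINK5 was higher in knockout. The part of differentiation state in the kallikrein levels was not tested.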

How the data were processed

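Poly-A RNA of HaCaT cells was sequenced as 6 stranded libraries. Per the submitters' processing notes, bcl2fastq (2.20.0.422), STAR and HOMER were used on hg19; the versions of the last 2 and the strand setting are not given in the sources used here, so reads of antisense transcripts cannot be told apart. The authors deposited RPKM per gene, counted over exons and condensed to 1 row per symbol, per the file headers, which also write FPKM. Read counts, 16294188 to 34968143 per library, were recovered from the steps between low values (97.9% to 99.8% of values whole within 0.1 read) and used for counting intervals (95%, exact) and for voom; intervals and floors (3 reads) cover counting error only.

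The 12925 genes that reached 1 RPKM in any library entered limma 3.58.1 in R 4.3.3 on log2(RPKM + 0.5), 1 coefficient per group, the variance trended on the mean, and p-values adjusted by Benjamini-Hochberg (threshold 0.05). The spread came from the 2 IL-1α pairs (2 residual degrees of freedom) and was assumed for the single unstimulated libraries. The self-test used simulated data. Unstimulated genotypes were compared by ratios of reads (2-fold). Alternatives changed the pseudocount, filter, scaling, model and libraries. Of each list, genes that passed were named (at most 4), otherwise the 2 most abundant; other genes were named after their values were seen. The members and lists were chosen with earlier results of these data known. Python 3.11.15 and scipy 1.17.1 were used.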

Additional observations from a re-analysis of the deposited data

How the results depend on the processing

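Of 527 member values under alternatives, 501 kept their direction and side of the threshold, 23 reversed and 3 came past the threshold. Changing the filter, the variance trend or the replicate block leaves a log2 difference as it was, so direction could not change there. Leaving out an IL-1α library of 1 genotype likewise leaves the response of the other genotype as it was. Of the 36 member results, 11 reversed in at least 1 alternative. The number of genes called, including all genes of the table, moved far more. For the wild-type response it was 28, against 49 with no filter, 107 with a filter on a mean of 1 RPKM, 53 with median-of-ratios scaling, 11 with voom, 138 in the additive model, 92 with the length trend removed and 0 to 70 with 1 IL-1α library left out. For the knockout response it was 9, against 5 with a pseudocount of 1, 65 with no filter, 38 with the mean filter, 4 with no variance trend, 2 with voom, 138 in the additive model and 0 to 0 with 1 IL-1α library left out. For knockout against wild type under IL-1α it was 20, against 7 with a pseudocount of 0.1, 0 with no filter, 78 with the mean filter, 13 with quantile normalization, 0 with no variance trend, 55 with voom, 343 in the additive model, 39 with the length trend removed and 0 with any 1 IL-1α library left out. The interaction gave 0, and 87 with no filter. The 138 genes given for both responses in the additive model are those of 1 shared IL-1α term. The 343 are those of a genotype term that also takes in the unstimulated libraries. In the additive model 3 members were called for genotype, against 0. Without stimulation 1228 genes passed 2-fold, 441 passed 3-fold and 539 passed with a minimum of 5 RPKM; members past it went from 6 to 1 at 3-fold. Summed kallikrein RPKM in unstimulated cells became 383 (wild type) and 247 (knockout) with median-of-ratios scaling; without KLK5 the group values were 232, 137 with IL-1α, 107 in knockout and 96.6 with IL-1α. The cause of these changes was not tested.

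The replicate number as a block gave 81, 18 and 58 genes called in those 3 comparisons. Across genes, the deviations of same-numbered libraries had a correlation of 0.0086. This value cannot settle whether the numbers pair the libraries, which the labels do not say.

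The following values reversed. In the knockout response, KLK10 became 0.00052 with median-of-ratios scaling. KLK7 at -0.45 and KLK13 at -0.31 in the additive model also had the other sign. These additive values belong to an IL-1α term shared by both genotypes, and not to a knockout response alone. In knockout against wild type under IL-1α, KLK5 became -0.10 with median-of-ratios scaling, -0.058 in the additive model and -0.019 with the length trend removed. The additive genotype term also takes in the unstimulated libraries. In the interaction, KLK5 became -0.049 with quantile normalization and -0.076 with the length trend removed. Leaving out 1 IL-1α library gave, in the knockout response, -0.077 to 0.011 for KLK10, -0.68 to 0.032 for KLK14, -0.38 to 0.42 for KLK7 and -0.26 to 0.68 for KLK13. In knockout against wild type it gave -0.23 to 0.26 for KLK5, -0.23 to 0.17 for KLK11, -0.60 to 0.34 for KLK13, -0.54 to 0.17 for KLK14 and -0.71 to 0.21 for KLK6, and in the interaction -0.029 to 0.46 for KLK5 and -0.63 to 0.29 for KLK6. KLK14 had no value under the mean filter. Removing the length trend and varying the additive model were alternatives chosen after seeing the data. Depth limits KLK14 and SPINK6, and the single unstimulated libraries limit every response.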
